A study of Mus musculus with 12 samples.

Results

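The colony-stimulating factor genes and receptor genes Csf1, Csf2, Csf3, Csf3r, Csf2ra and Csf2rb were followed across primary tumours of 4 mouse mammary carcinoma lines. The members were the probesets that the annotation of the exon array gives to 1 of these symbols and to no other gene, 66 of the 207232 probesets with 1 symbol. Csf1 had 15 probesets, Csf2 had 5, Csf3 had 6, Csf3r had 19 and Csf2rb had 21. No probeset carried the symbol Csf2ra, so 5 of the 6 genes were measured and the alpha chain of the GM-CSF receptor was not analysed here.

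The samples were primary breast tumours of 67NR, 168FARN, 4T07 and 4T1 cells, 12 arrays in all and 3 for each line. The hosts were female BALB/c mice, 3 months old, which received the cells in a mammary fat pad, 8 mice for 67NR, 11 for 168FARN, 15 for 4T07 and 13 for 4T1, and the tumours were removed at an average size of 1 to 2 cm in a group. No line carried a treatment, and the arrays are not stated to come from separate animals, so the p-values rest on the spread among these samples alone, and that spread may be technical. All 4 lines derive from the same spontaneous mammary tumour. Each group is 1 cell line grown in mice that keep their own blood and stromal cells, so a gene level sums the RNA of carcinoma cells and of host cells. The lines are known to differ in spread: 67NR stays at the primary site, 168FARN reaches lymph nodes, 4T07 reaches the lung without visible nodules and 4T1 forms metastases.

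Colony-stimulating factors are secreted glycoproteins that drive the formation, survival and activity of myeloid cells. G-CSF, the product of Csf3, acts on neutrophils and their precursors through the receptor encoded by Csf3r. M-CSF, the product of Csf1, keeps macrophages alive through the receptor encoded by Csf1r. GM-CSF, the product of Csf2, binds an alpha chain, Csf2ra, and signals through the beta chain Csf2rb, which mouse cells also use for interleukin-3 and interleukin-5. Tumours of the 4T1 line are known for the large rise of neutrophils they cause in the blood of their hosts.

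On each array, the median log2 signal over the probesets of a gene was taken as its level. Olfactory receptor genes, 335 of them, served as the background, and a level under their 95th percentile, 5.08, is called in the range of the background. For single probesets the same percentile was 5.98. Array medians lay between 7.21 and 7.57. The mean of 11 epithelial markers was 5.59 to 6.37 on the arrays of 67NR, 6.74 to 6.79 in 168FARN, 7.93 to 9.44 in 4T07 and 8.56 to 9.01 in 4T1, so the epithelial identity of the tumours was weakly marked in 67NR. The mean of 9 skeletal muscle markers was 5.62 on array 1 of 168FARN but 8.22 on array 2 and 9.21 on array 3, against 5.41 to 6.31 in the other lines. The comparisons of the members with 168FARN and the counts in the gene lists were therefore also made with array 1 as the only array of that line, an alternative chosen after seeing the data. Beyond that, the part of muscle RNA in the results was not tested.

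All 5 measured genes differed among the 4 lines by limma's moderated F-test, at adjusted p = 4.04e-06 for Csf3, 0.000129 for Csf3r, 0.00249 for Csf2rb, 0.0088 for Csf1 and 0.0195 for Csf2. Of all 15025 genes tested, 42% passed the same test. Of the 66 probesets, 49 differed among the lines when each was tested alone, against 27.2% of all probesets. In bulk tumours, fewer cells of a type and less RNA per cell cannot be told apart. In the plot of levels by array, the ligand gene Csf3 separates 4T07 and 4T1 from the other lines. Csf1, Csf2, Csf3r and Csf2rb have their lowest means in 168FARN. Of these, Csf1 alone passed there against 67NR, and Csf3r was close to the threshold (limma adjusted p = 0.053).

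**Figure D1:**
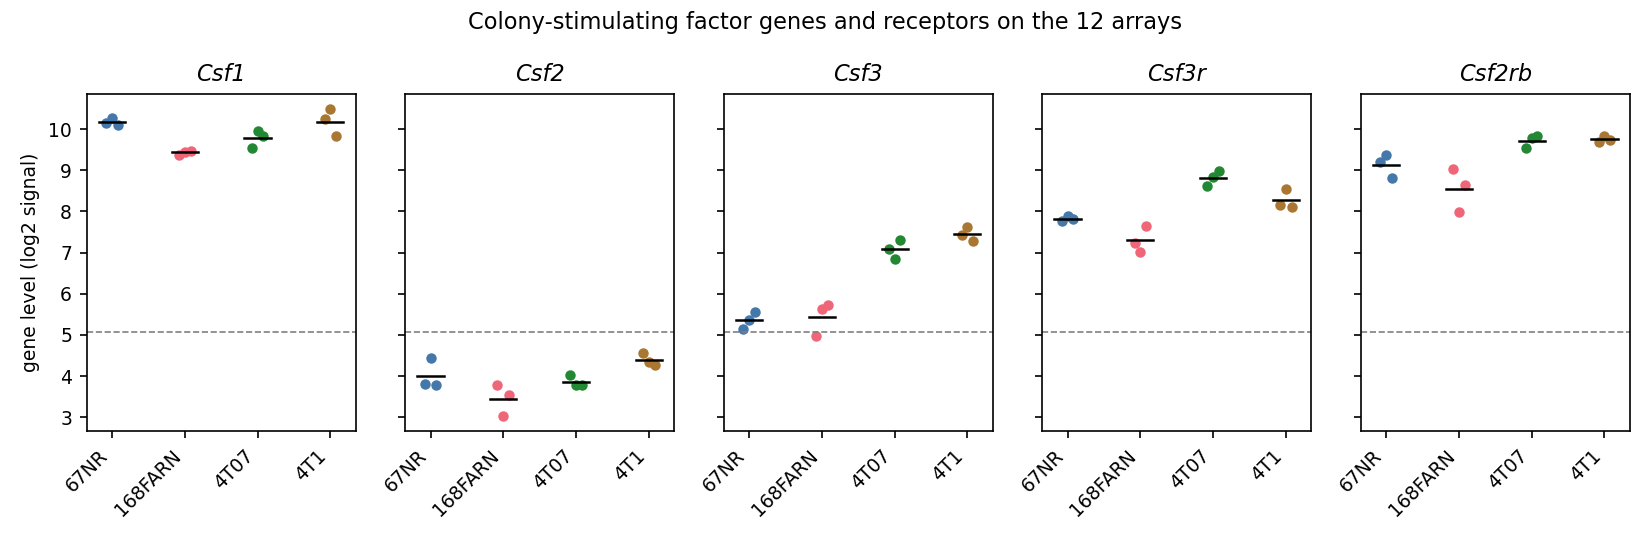
Level of each measured gene (median log2 signal of its probesets) on the 12 arrays, with 3 points per tumour line, the line mean as a black bar and the background level of 5.08 as a dashed line. Csf3 lies at 4.98 to 5.73 in 67NR and 168FARN and at 6.84 to 7.62 in 4T07 and 4T1, and Csf2 lies under the dashed line on all arrays.

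Csf3, the G-CSF gene, was low in 67NR and 168FARN and higher in both lines that reach the lung. Its level was 5.15, 5.36 and 5.56 on the arrays of 67NR and 4.98, 5.62 and 5.73 on those of 168FARN. It was 7.09, 6.84 and 7.30 on the arrays of 4T07 and 7.44, 7.62 and 7.28 on those of 4T1. The arrays of 67NR and 168FARN overlapped, and every array of 4T07 and 4T1 lay above all of them.

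Against 67NR, Csf3 rose in 4T07 by 1.72 on the log2 scale (3.30-fold, SE 0.207, limma adjusted p = 4.72e-05). In 4T1 it rose by 2.09 (4.26-fold, adjusted p = 8.75e-06). Against 168FARN the rise was 1.63 in 4T07 (adjusted p = 7.18e-05) and 2.00 in 4T1 (adjusted p = 1.08e-05). Between 4T1 and 4T07 the difference was 0.37, with a 95% interval from -0.08 to 0.82 and adjusted p = 0.493. The difference between 168FARN and 67NR was 0.09 (interval -0.36 to 0.54, adjusted p = 0.81). These calls also held with array 1 of 168FARN alone, where Csf3 was 2.47 higher in 4T1 (adjusted p = 6.53e-05) and 2.10 higher in 4T07 (adjusted p = 0.000245).

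The 6 probesets of Csf3 showed the difference to unequal extents, and the gene level, a median, lies well inside their range. Probeset 4977081 read 5.07, 5.08 and 5.66 in 67NR and 5.30, 6.25 and 4.03 in 168FARN. It read 9.84, 8.42 and 9.60 in 4T07 and 9.74, 10.39 and 9.92 in 4T1. Its mean in 67NR, 5.27 ± 0.34 (SD, n = 3), was in the range of the background for a probeset and so was that in 168FARN, 5.19 ± 1.11. The measured difference between 4T1 and 67NR was 4.75.

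Probeset 5463540 went from 6.27 ± 0.23 in 67NR to 8.33 ± 0.51 in 4T07 and 9.05 ± 0.30 in 4T1 (SD, n = 3), and it was well above the background in both. Probeset 5068052 lay between 6.49 and 8.09 on all arrays and did not pass the test across the lines (limma adjusted p = 0.0786 over all probesets). The other 3 probesets averaged under 5.98 over the arrays and each passed it. All 6 probesets had higher means in 4T07 and 4T1 than in 67NR, by 0.40 to 4.02 in 4T07 and by 0.36 to 4.75 in 4T1. Of the 6, 3 passed in 4T07 and 4 in 4T1, where 6.75% and 6.06% of all probesets were called higher. Over the 3 probesets with a mean over all arrays above 5.98, the gene's rise in 4T1 against 67NR was 2.78 in place of 2.09. Of these, 4977081 was under 5.98 in 67NR (5.27) and 168FARN (5.19) and entered through 4T07 (9.29) and 4T1 (10.02). The choice of probesets thus depended on the difference itself, so the larger rise is no independent check of it.

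**Figure D2:**
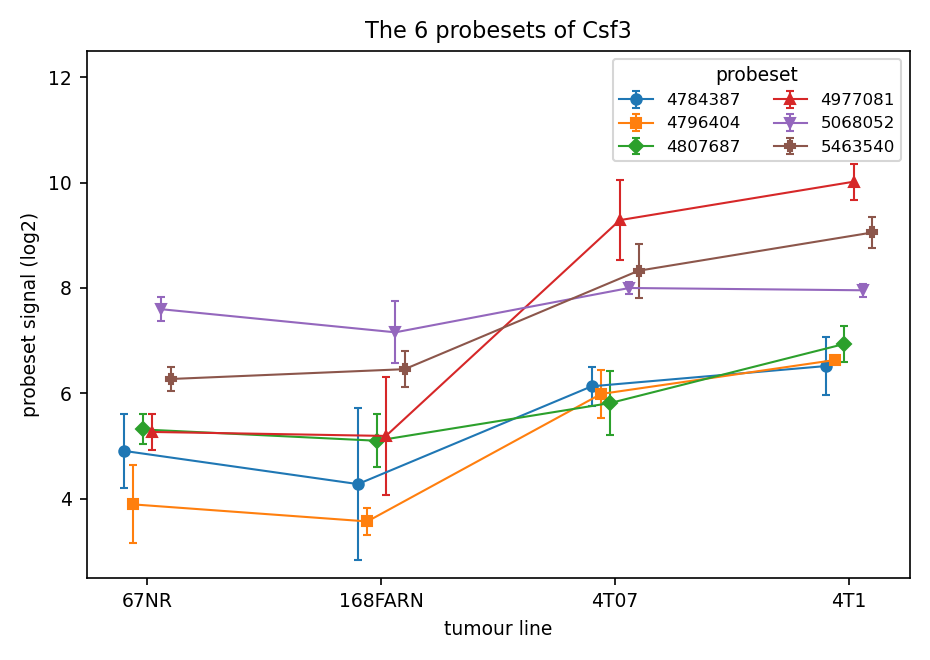
Mean log2 signal ± SD (n = 3 arrays) of each of the 6 Csf3 probesets in the 4 tumour lines. Probeset 4977081 climbs from 5.27 in 67NR to 10.02 in 4T1, 5463540 from 6.27 to 9.05, and 5068052 lies at 7.60 in 67NR and 7.96 in 4T1.

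Csf2, the GM-CSF gene, had a level in the range of the background on all 12 arrays. It was 3.81, 4.44 and 3.79 in 67NR, 3.78, 3.03 and 3.54 in 168FARN, 4.04, 3.79 and 3.77 in 4T07 and 4.57, 4.34 and 4.27 in 4T1. The arrays of 4T1 lay above those of 168FARN and overlapped those of 67NR.

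Of its 5 probesets, 4722870 averaged above the background for a probeset. It read 6.37 ± 0.14 in 67NR, 5.82 ± 0.03 in 168FARN, 6.81 ± 0.36 in 4T07 and 7.12 ± 0.06 in 4T1 (SD, n = 3; limma F-test, adjusted p = 0.00155). Probeset 4775645 had the same order of lines at lower signals (4.93 ± 0.16 in 168FARN, 6.18 ± 0.22 in 4T1, adjusted p = 0.00335), and the other 3 did not pass. At the level of the gene, a median, Csf2 was higher in 4T1 than in 168FARN by 0.94 (SE 0.216, limma adjusted p = 0.00484). No other pair of lines passed with this median. With the mean of its probesets, Csf2 also passed in 168FARN against 67NR (-0.73, limma adjusted p = 0.00271). By the same mean it passed in 4T07 against 168FARN (0.86, adjusted p = 0.000618) and in 4T1 against 67NR (0.51, adjusted p = 0.0251).

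The F-test call of Csf2 was lost without 168FARN array 2 (adjusted p = 0.0591) or 4T1 array 1 (0.0657). With 168FARN array 1 alone its difference between 4T1 and 168FARN was 0.61 (adjusted p = 0.161). Leaving out any 1 array at a time, this difference lay between 0.73 and 1.10 and passed each time.

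Csf1, the M-CSF gene, was expressed well above the background in all lines and was lowest in 168FARN. Its level was 10.14, 10.26 and 10.09 in 67NR, 9.38, 9.45 and 9.48 in 168FARN, 9.55, 9.95 and 9.84 in 4T07 and 10.23, 10.49 and 9.83 in 4T1. All 3 arrays of 168FARN lay below every array of the other lines.

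Csf1 fell in 168FARN against 67NR by 0.73 (1.65-fold, SE 0.174, limma adjusted p = 0.00806) and was higher in 4T1 than in 168FARN by 0.75 (adjusted p = 0.00527). The other 4 pairs did not pass: 4T1 and 67NR differed by 0.02 (interval -0.36 to 0.40), and 4T07 lay between the extremes, 0.38 below 67NR (adjusted p = 0.138). All 15 probesets had lower means in 168FARN than in 67NR, by 0.30 to 0.88, and 9 of them passed, where 7.26% of all probesets were called lower. All 15 had higher means in 4T1 than in 168FARN, by 0.32 to 0.99, and 11 of them passed, where 8.69% were called higher. With array 1 of 168FARN alone the differences kept their size, at -0.78 and 0.80, but did not pass (adjusted p = 0.0804 and 0.0612).

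The receptor of M-CSF, Csf1r, was no member and was singled out after its values were seen. It stood at 11.31 ± 0.07 in 67NR, 10.34 ± 0.12 in 168FARN, 10.47 ± 0.33 in 4T07 and 10.95 ± 0.09 in 4T1 (SD, n = 3). It fell against 67NR in 168FARN by 0.97 (limma adjusted p = 0.000863) and in 4T07 by 0.84 (adjusted p = 0.00215), while the 4T1 difference of -0.35 did not pass (adjusted p = 0.154).

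Csf3r, the G-CSF receptor gene, was highest in 4T07 and lowest in 168FARN. Its level was 7.76, 7.89 and 7.81 in 67NR, 7.24, 7.02 and 7.64 in 168FARN, 8.61, 8.84 and 8.98 in 4T07 and 8.16, 8.54 and 8.12 in 4T1. No array of 1 line overlapped those of another, so the lines stood in the order 168FARN, 67NR, 4T1, 4T07.

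Not every step of that order passed the test. Csf3r was higher in 4T07 than in 67NR by 0.99 (1.99-fold, SE 0.182, limma adjusted p = 0.00133) and than in 168FARN by 1.51 (2.85-fold, adjusted p = 4.70e-05). It was higher in 4T1 than in 168FARN by 0.97 (adjusted p = 0.00121). Against 67NR, the differences of 0.45 in 4T1 (interval 0.06 to 0.84, adjusted p = 0.0972) and -0.52 in 168FARN (adjusted p = 0.053) did not pass. The difference of -0.54 between 4T1 and 4T07 did not pass either (interval -0.93 to -0.15, adjusted p = 0.18). In 9 other settings, counting that with array 1 of 168FARN alone, the difference from 67NR passed in 6 for 168FARN and 2 for 4T1. Leaving out 1 array at a time, the 168FARN difference from 67NR passed in 3 of 12 fits.

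The 19 probesets of Csf3r moved together. All 19 lay above the background, and 18 differed among the lines, against 27.2% of all probesets. All 19 had higher means in 4T07 than in 67NR, by 0.50 to 1.37. Of these 16 passed, where 6.75% of all probesets were called higher. In 4T07 against 168FARN 18 of the 19 passed, where 7.73% of all probesets were called higher. In the same way all 19 had lower means in 4T1 than in 4T07, with differences of -0.91 to -0.0023 that did not pass for any of them, where 0.507% were called lower. With array 1 of 168FARN alone, Csf3r was still higher in 4T07 by 1.57 (adjusted p = 0.0011) and in 4T1 by 1.03 (adjusted p = 0.0107).

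**Figure D3:**
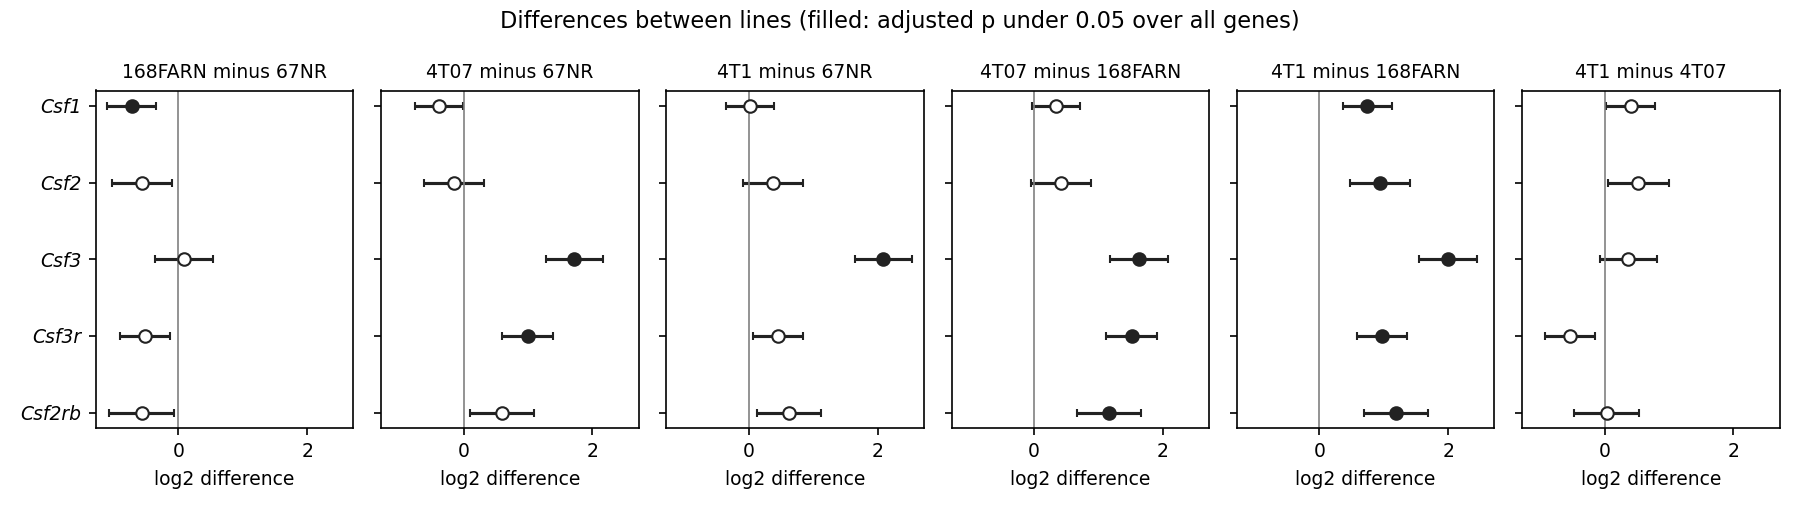
Difference between the means of each pair of lines for the 5 measured genes, on the log2 scale, with 95% intervals from the limma fit. Filled points passed at an adjusted p under 0.05 over all genes. Csf3 lies from 1.63 to 2.09 in the 4 pairs of a lung-reaching line with another line, and no gene passed between 4T1 and 4T07.

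The window of 250 bases before the RefSeq start of Csf3r is shown because PU.1 and C/EBP factors, which govern the granulocyte programme, are known to act on this gene's promoter. The window of Csf1, a ligand gene whose lines stood in another order, is shown beside it. Both come from the RefSeq promoter table of build GRCm38.p6, which held 4 of the 6 members. They are written 5′ to 3′ along the gene, Csf3r from chr4:126024409-126024658 on the plus strand and Csf1 from chr3:107760470-107760719 on the minus strand. Capitals mark GAGGAA, the core of PU.1 sites, and GCAAT, a core of C/EBP sites, searched on both strands.
Csf3r: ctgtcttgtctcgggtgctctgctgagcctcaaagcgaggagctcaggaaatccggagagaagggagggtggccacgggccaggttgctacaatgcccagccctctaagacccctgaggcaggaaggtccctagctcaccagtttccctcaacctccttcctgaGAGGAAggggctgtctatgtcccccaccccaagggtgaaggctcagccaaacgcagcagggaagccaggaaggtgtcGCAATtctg
Csf1: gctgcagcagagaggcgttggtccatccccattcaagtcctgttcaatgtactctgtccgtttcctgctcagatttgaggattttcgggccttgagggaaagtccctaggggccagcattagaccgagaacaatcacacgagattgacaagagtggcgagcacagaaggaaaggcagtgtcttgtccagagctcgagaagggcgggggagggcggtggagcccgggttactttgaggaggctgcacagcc

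The Csf3r window held 1 GAGGAA, starting 86 bases before the gene's start, and 1 GCAAT, starting 9 bases before it, and the 2 did not overlap. The Csf1 window held 0 of either. Of 32851 windows of the same length, 23.3% held GAGGAA and 23.1% held GCAAT, so such matches are common, and they describe letters and not sites.

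Csf2rb, the beta chain gene, was higher in both lung-reaching lines than in 168FARN. Its level was 9.20, 9.37 and 8.82 in 67NR, 9.04, 7.99 and 8.64 in 168FARN, 9.53, 9.79 and 9.84 in 4T07 and 9.69, 9.82 and 9.74 in 4T1. The arrays of 168FARN were the most spread and overlapped those of 67NR, and those of 4T07 and 4T1 lay above both.

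Against 168FARN, Csf2rb was higher by 1.16 in 4T07 (2.24-fold, SE 0.231, limma adjusted p = 0.00216) and by 1.19 in 4T1 (2.29-fold, adjusted p = 0.00158). Of its 21 probesets, 13 were called higher in each of these comparisons, where 7.73% and 8.69% of all probesets were called higher. Against 67NR the differences of 0.59 and 0.62 did not pass (adjusted p = 0.0858 and 0.0746), and 4T1 and 4T07 differed by 0.03 (interval -0.47 to 0.53). With array 1 of 168FARN alone, the differences from 168FARN were 0.68 and 0.71 and did not pass (adjusted p = 0.0872 and 0.0672). Between 168FARN and 67NR Csf2rb differed by -0.57, which did not pass (adjusted p = 0.0919). Without array 1 of 168FARN the difference was -0.81 and passed (adjusted p = 0.0185), without array 2 it was -0.29 (0.35), and it was -0.09 with array 1 of 168FARN alone. In that fit the differences of the lung-reaching lines from 67NR, the same in size, passed (adjusted p = 0.0263 in 4T07 and 0.0216 in 4T1).

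Csf2rb has a close relative next to it, Csf2rb2, a beta chain that serves interleukin-3 alone. No other gene lies between them in the RefSeq genes of GRCm38.p6, and 13 probesets were annotated to both and were left out of the gene levels. Because probes for one gene may also bind RNA of the other, the share of each in a signal is uncertain. The median of the 13 shared probesets was 9.09 ± 0.18 in 67NR, 8.47 ± 0.34 in 168FARN, 9.58 ± 0.14 in 4T07 and 9.78 ± 0.11 in 4T1 (SD, n = 3).

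Csf2rb2 itself, with 8 probesets, fell in 168FARN against 67NR by 1.21 (limma adjusted p = 0.000567), from 8.12 ± 0.31 to 6.91 ± 0.24 (SD, n = 3). It was higher by 1.57 in 4T07 and 1.53 in 4T1 than in 168FARN (adjusted p = 5.65e-05 and 5.86e-05). Whether the drop in 168FARN differed between Csf2rb2 and Csf2rb was not tested.

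**Figure D4:**
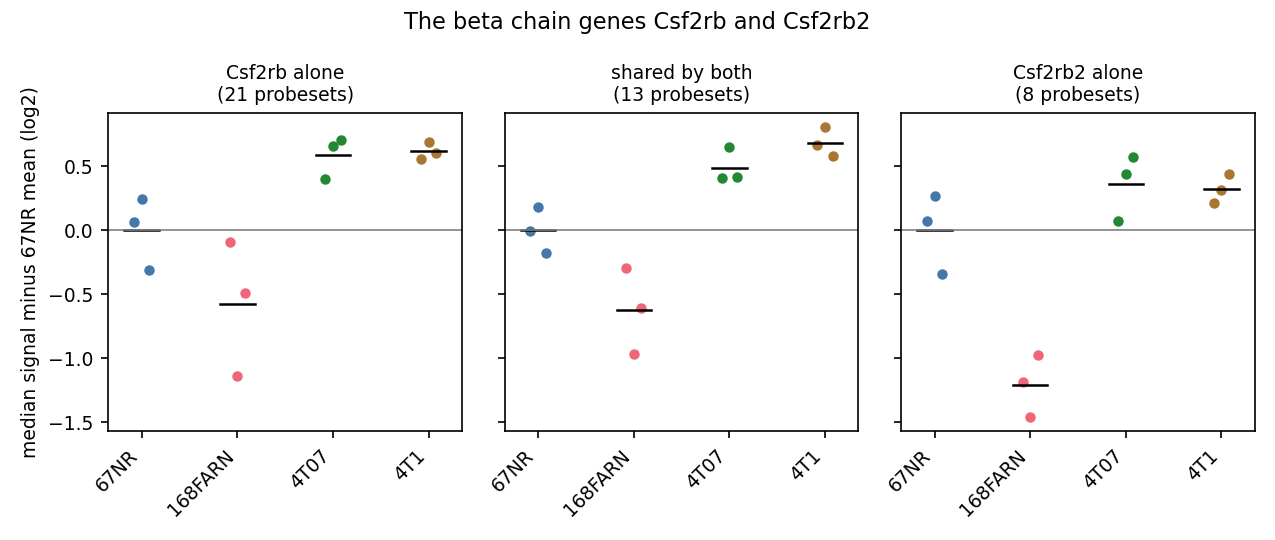
Median log2 signal on each array, minus the mean of the 67NR arrays, for the probesets of Csf2rb alone (21), of both beta chain genes (13) and of Csf2rb2 alone (8), with 3 points and a mean bar per line. All 3 sets are lowest in 168FARN, where Csf2rb2 is 1.21 below 67NR, while the difference of -0.57 for Csf2rb did not pass.

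By pair of lines, the members stood against these shares of all genes. In 168FARN against 67NR, 1 of 5 members fell, while 11.2% of genes fell. In 4T07 against 67NR, 2 members rose (11% of genes rose), and in 4T1 against 67NR, 1 rose (9.38% rose).

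In 4T07 against 168FARN, 3 members were higher (11.4% of genes were higher). In 4T1 against 168FARN all 5 were higher, while 11.9% of genes were higher, but for Csf2 both levels were in the range of the background, and with array 1 of 168FARN alone 2 of them passed. Between 4T1 and 4T07, 0 of 5 passed by limma, against 2.38% of genes, and Csf1, Csf2 and Csf3r had an unadjusted p under 0.05 (0.0372, 0.0304 and 0.0108). With the mean of a gene's probesets in place of the median, Csf3r passed there, at -0.60 (adjusted p = 0.0354). These comparisons share their control arrays, so they are not independent of each other.

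For exon-level change, limma's diffSplice was used with a filter that admitted 54 probesets of Csf1, Csf3r and Csf2rb and none of Csf2 or Csf3. A probeset passed at an adjusted p under 0.05 and a change relative to its gene of at least 1 on the log2 scale. The probesets that passed were 2 of Csf2rb in 4T1 against 168FARN, where 1.26% of probesets passed overall. In the other pairs the share of all probesets was 0.743% in 168FARN against 67NR, 0.672% in 4T07 against 67NR, 0.736% in 4T1 against 67NR, 0.761% in 4T07 against 168FARN and 0.149% in 4T1 against 4T07. The 2 were 4497226, at -1.16 relative to the gene (adjusted p = 0.00657), and 4324771, at -1.04 (adjusted p = 0.0207).

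Both are probesets that did not follow the rest of the gene. Probeset 4497226 read 7.85 ± 0.37 in 168FARN and 7.74 ± 0.13 in 4T1, and 4324771 read 7.35 ± 0.27 and 7.35 ± 0.33 (SD, n = 3), while the gene's median was 1.19 higher in 4T1. The splicing index, a second test of each probeset against the median of its gene, called 4497226 (-1.28, limma adjusted p = 0.0316) but not 4324771 (adjusted p = 0.0763), with 0.682% of probesets called in that pair.

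Without the filter, diffSplice called neither of these 2 probesets (4497226 at -1.06, adjusted p = 0.0578), and the splicing index called 4497226 (adjusted p = 0.0451).

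Also without the filter, probeset 4977081 of Csf3 exceeded the rest of its gene in 4T1 by 2.93 against 67NR (diffSplice adjusted p = 6.33e-05) and by 2.72 against 168FARN (adjusted p = 0.000189). There diffSplice called 1.38% and 2.06% of all probesets. The splicing index called it in the same pairs (adjusted p = 0.0477 and 0.0299), against 0.783% and 1.03% of all probesets. In 4T07 against 67NR diffSplice called it at 2.76 (adjusted p = 0.000184, 1.34% of all probesets), and the splicing index did not (adjusted p = 0.0903). The same held in 4T07 against 168FARN (2.55, diffSplice adjusted p = 0.000676, 1.45% of all probesets, and splicing index adjusted p = 0.0696, 0.691%).

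In the other direction, without the filter, diffSplice called Csf3 probeset 5068052 in 4T1 against 67NR (-2.34) and 168FARN (-2.11). It also called Csf2rb probeset 4855000, which was in the background range, in 3 pairs, and the splicing index called neither of these. The splicing index alone called Csf3 probeset 4807687 in 4T07 against 67NR (-1.22, adjusted p = 0.0492, 0.757% of all probesets). Probesets 4784387, 4796404, 4807687 and 4977081 of Csf3 averaged under the probeset background of 5.98 in 67NR, and the part of the background in these exon-level differences was not tested.

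The genes whose levels followed those of the members most closely were sought by the root mean square difference over the 12 arrays, after each gene's own mean had been subtracted. For Csf3 they were Lpar2, a receptor of lysophosphatidic acid (0.18), Als2cl (0.23) and Fndc4 (0.25), where Csf3 itself varied by 0.97. For Csf3r they were Cnbd2 (0.17), the kinase Mapkapk3 (0.19) and the lipid transfer protein Pctp (0.20), where Csf3r varied by 0.59. Cnbd2 itself was in the range of the background in 67NR, 168FARN and 4T1, and averaged 5.15 in 4T07. For Csf2rb they were the acyltransferase Hhat (0.14), the phagocyte receptor Mertk (0.18) and the ubiquitin ligase Trim35 (0.19), where Csf2rb varied by 0.55. These genes were picked for their likeness, so their values carry no test, and Csf1, whose line means spanned less than 1, and Csf2, in the background range, were not searched.

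Neutrophils carry Csf3r, and many of their markers were higher in 4T07 and 4T1 than in 67NR. Shares of all genes stand beside these counts: 13.5% rose and 11.2% fell in 168FARN against 67NR, 11% and 12.7% in 4T07, and 9.38% and 13% in 4T1. Of 20 neutrophil markers 15 were measured, and 13 of them rose in 4T07 and 7 in 4T1 against 67NR, at median changes of 1.92 and 0.89 where those of all genes were -0.04. In 168FARN 1 rose, at a median change of 0.26, while the mean of Csf3r was lower there than in 67NR (-0.52, limma adjusted p = 0.053). Ly6g, Elane, Fpr1 and Retnlg were among the markers not measured. The mean of the 15 was 5.64 to 6.22 on the arrays of 67NR, 6.07 to 6.56 in 168FARN, 7.84 to 8.20 in 4T07 and 7.24 to 7.49 in 4T1.

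Among the neutrophil markers with the highest levels, Lcn2, an iron-binding protein of neutrophils and of some carcinoma cells, rose by 3.08 in 4T07 and 3.90 in 4T1 against 67NR. Fpr2, a receptor of formyl peptides, rose by 1.49 and 0.68. The gelatinase Mmp9 rose by 1.71 in 4T07 (limma adjusted p = 0.0208) and did not pass in 4T1 (1.23, adjusted p = 0.0897). The neutrophil mean, like Csf3r, was highest in 4T07, while the mean of Csf3 was highest in 4T1, although neither Csf3r nor Csf3 passed between these lines. The part of neutrophil number in the receptor's level was not tested.

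**Figure D5:**
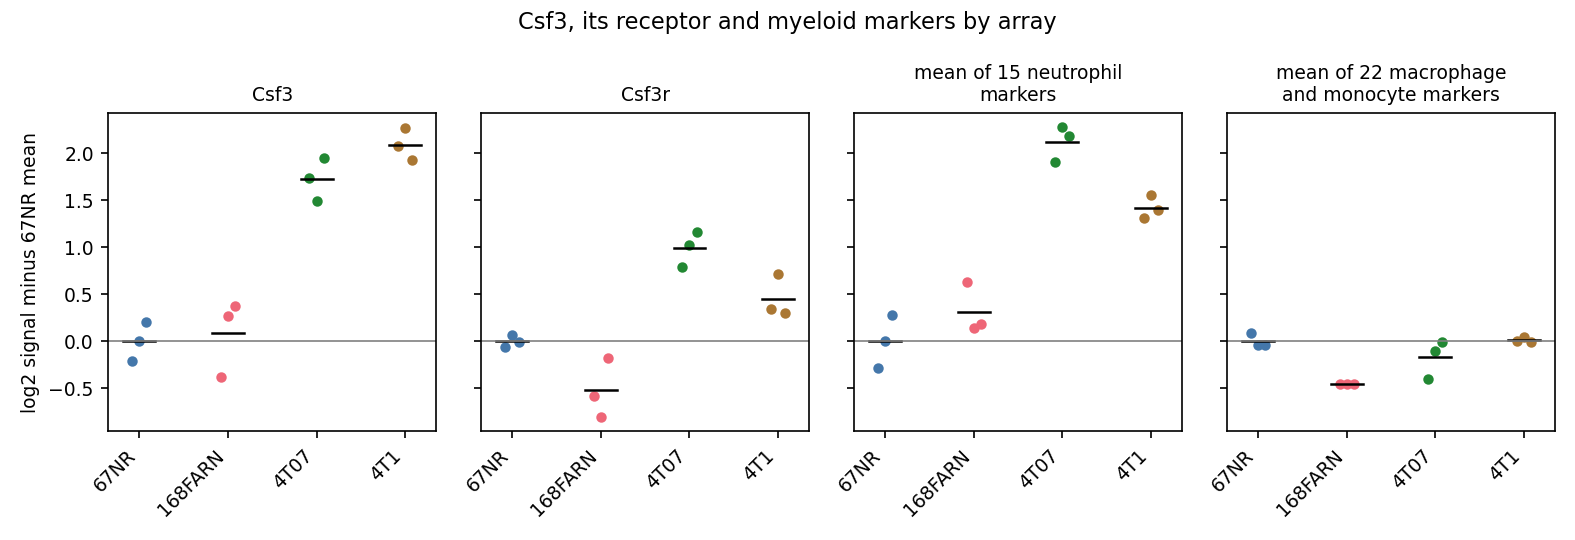
Log2 signal minus the mean of the 67NR arrays for Csf3, Csf3r, the mean of 15 neutrophil markers and the mean of 22 macrophage and monocyte markers, with 3 points and a mean bar per tumour line. Csf3 and the neutrophil mean are higher in 4T07 and 4T1, Csf3r is 0.99 higher in 4T07, and the macrophage mean is lowest in 168FARN.

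Macrophages and monocytes are the cells that M-CSF sustains, and they carry beta chains. The mean of 22 of their markers was lowest in 168FARN, although single markers differed in their order. It was 9.01 to 9.14 in 67NR, 8.60 on each array of 168FARN, 8.66 to 9.05 in 4T07 and 9.05 to 9.11 in 4T1. Of the 22, 7 fell and 1 rose in 168FARN against 67NR, 4 fell and 3 rose in 4T07, and 5 fell and 4 rose in 4T1. Between 4T07 and 168FARN 6 were higher and 4 lower in 4T07, at a median change of -0.07 where that of all genes was -0.09. Of all 15025 genes, 1718 (11.4%) were called higher in that pair and 4248 in either direction. The highest, the lysozyme gene Lyz2 and the complement gene C1qb, did not differ among the lines by the F-test (adjusted p = 0.0792 and 0.316), and C1qa fell in 168FARN by 0.64 (limma adjusted p = 0.0223). The part of macrophage number in the levels of Csf1 and the beta chains was not tested.

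Other cells that can carry these receptors were also followed. Of 7 measured eosinophil, basophil and mast cell markers, 4 fell and 1 rose in 4T07 and in 4T1 against 67NR. The mast cell protease Cpa3 fell by 3.48 in 4T07 and 3.66 in 4T1. Fcer1a fell by 2.11 in each of these lines, into the range of the background. The basophil protease Mcpt8 rose by 1.30 and 1.21, from a mean of 4.75 in 67NR that was in the range of the background. The IgE receptor chain Ms4a2 was in the range of the background in all 4 lines. Of 8 dendritic cell markers 1 differed among the lines. Of 12 T and NK cell markers, 5 fell in 168FARN, 2 rose and 2 fell in 4T07 and 3 fell in 4T1, and Klrb1c was in the range of the background in all lines.

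Among the stromal and tumour markers, 8 of 11 fibroblast markers rose in 168FARN and in 4T07, and 6 rose and 1 fell in 4T1 against 67NR. Of 7 endothelial markers, 6 fell in 168FARN, 3 in 4T07 and 1 in 4T1. Of 11 epithelial markers, 2 rose in 168FARN and 10 in each of 4T07 and 4T1. Of 9 skeletal muscle markers, 4 rose in 168FARN. Most epithelial markers and Csf3 were thus higher in 4T07 and 4T1 than in 67NR, as were many neutrophil and fibroblast markers. Krt8, the epithelial marker with the highest level, also rose by 4.84 in 168FARN. Krt18 and Epcam, the next highest, differed there by 1.08 and 1.28 and did not pass (limma adjusted p = 0.069 and 0.089). Whether carcinoma cells or host cells carried the Csf3 signal was not tested.

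Among 15 measured relatives of these cytokines and receptors, 10 differed among the lines, against 42% of all genes. In 168FARN against 67NR 7 fell and 1 rose, in 4T07 5 fell and 2 rose, and in 4T1 3 fell. Kitl, the ligand of the stem cell receptor Kit, fell from 10.84 ± 0.06 in 67NR to 9.21 ± 0.30 in 4T07 and 9.09 ± 0.10 in 4T1 (SD, n = 3). It also fell in 168FARN, by 0.60 to 10.25 ± 0.18 (limma adjusted p = 0.0178). Lif, a cytokine related to interleukin-6, fell by 1.07 in 168FARN. Il11 rose by 1.67 in 4T07 and differed by -2.02 between 4T1 and 4T07 (limma adjusted p = 0.00129).

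Below the receptors, Janus kinases and STAT factors carry the signal, and SOCS family genes damp it. Of 21 measured genes of this list 13 differed among the lines, with 9 falls in 168FARN, 6 rises and 3 falls in 4T07 and 5 rises and 3 falls in 4T1 against 67NR. Jak3, the kinase of the common gamma chain, rose by 0.97 in 4T07 and 1.45 in 4T1. Cish, a feedback gene induced by STAT5, fell by 0.82 in 168FARN and rose by 0.79 in 4T07 and 0.83 in 4T1. Pim1, a kinase induced by cytokines, fell by 1.04 in 168FARN, and the kinase Fes fell by 0.60 there and rose by 0.47 in 4T07 and 0.59 in 4T1.

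The inducers of colony-stimulating factor genes include interleukin-1, interleukin-17 and tumour necrosis factor with their receptors and transcription factors. Of 23 measured, 16 differed among the lines, with 2 rises and 8 falls in 168FARN, 9 and 2 in 4T07 and 8 and 3 in 4T1 against 67NR. Il1b rose from 8.66 ± 0.12 in 67NR to 10.32 ± 0.58 in 4T07 and 10.13 ± 0.17 in 4T1, and stood at 8.15 ± 0.27 in 168FARN (SD, n = 3). Il1a, in the range of the background in 168FARN, rose by 1.43 in 4T07 and 1.68 in 4T1 against 67NR. The antagonist Il1rn rose in all 3 lines, by 0.53 in 168FARN, 1.11 in 4T07 and 1.37 in 4T1. Cebpb, a transcription factor of emergency granulocyte production, rose by 1.03 in 4T07 and 1.09 in 4T1 and by limma did not pass in 168FARN (adjusted p = 0.908).

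Of 9 measured myeloid transcription factors, 4 rose in 4T07, 3 rose and 1 fell in 4T1, and 1 fell in 168FARN against 67NR. Runx1 rose by 0.81 in 4T07 and 0.93 in 4T1 and fell by 0.52 in 168FARN. Irf8, a factor of the monocyte lineage, rose by 0.68 in 4T07, Lef1 rose by 0.72 and 0.94 in the lung-reaching lines, and Klf4 fell by 1.57 in 4T1. Of 7 neutrophil chemokines and their receptors, 2 rose in 168FARN, 4 rose and 1 fell in 4T07, and 2 rose and 1 fell in 4T1. The chemokine Cxcl2 rose by 1.56 in 4T07 and 1.73 in 4T1, and its receptor Cxcr2 by 2.30 and 1.52. Cxcl5 rose by 1.45 in 168FARN and 1.24 in 4T07 and fell by 1.12 in 4T1, and Ppbp fell by 0.91 in 4T07.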

How the data were processed

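Biotin-labelled RNA of 12 primary tumour samples, not stated to come from separate animals, was measured on an Affymetrix mouse exon array, and each deposited value is the signal of 1 probeset on 1 array, taken as log2 from the range of the values. The authors' steps of summary, background correction and normalization are not given in the sources used here, and the values were used as deposited. Probesets were paired with genes through the array's annotation (207232 with 1 symbol, 3882 with several, 16976 with none), with symbols updated through the RefSeq genes of GRCm38.p6. Of 16207 symbols, 14055 were current, 2111 were updated and 41 kept.

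Gene levels were medians over at least 3 probesets. They were fitted with limma 3.58.1 in R 4.3.3 (lmFit, eBayes, 1 mean per line, no covariate), with the data.table package, version 1.17.8. Benjamini-Hochberg adjustment ran over all 15025 genes, or all probesets, and an adjusted p under 0.05 was called. The functions were tested on simulated data. diffSplice pools the spread of a gene's probesets, so noisy probesets can pass it, and the splicing index was added for this reason after seeing the data. For arrays no read depth exists, and their number limits the precision.

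The members and gene lists were chosen with earlier results of these data known. The rule for named genes took all members, the 4 genes of each pathway list with the smallest adjusted p of the F-test, and in each marker list the 3 genes with the highest levels and any gene in the background in all lines. It also took the 3 genes nearest to each member above the background whose line means spanned at least 1, and called member probesets. Csf1r and the uncalled member probesets described singly were chosen after their values were seen, and some marker genes that the rule took are not printed. Alternatives were another gene summary, normalization, filters, moderation, a replicate block and leaving out each array.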

Additional observations from a re-analysis of the deposited data

How the results depend on the processing

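Of 30 differences between pairs of lines (5 members, 6 pairs), 12 passed the test. None of these 12 was lost in 8 other settings of the processing or in the 12 fits without 1 array. Csf2 could not be tested in the settings with genes or probesets above the background only. Of the 18 that did not pass, 10 passed in at least 1 of these fits, and 0 of the called differences reversed.

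With 168FARN represented by its array 1 alone, 5 of the 12 were lost, and that array is then assumed to vary like the other lines. The F-test of Csf1 had a largest difference of 0.80 (limma adjusted p = 0.0758) and that of Csf2 0.61 (adjusted p = 0.149). Members called were then 0 in 168FARN against 67NR, 2 in 4T1 against 168FARN and 2 in 4T1 against 67NR, and 27 of the 66 probesets differed among the lines. Over all genes, 1847 in place of 3710 were called in 168FARN against 67NR, 2112 in place of 4248 in 4T07 against 168FARN, and 2470 in place of 4688 in 4T1 against 168FARN. Among the marker lists, 2 endothelial, 2 dendritic and 1 muscle marker differed among the lines. The exon test then called 1 member probeset. That fit held 2 fewer arrays, and the cause of these losses was not tested.

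Members called in 168FARN against 67NR were 3 with the mean of probesets or quantile normalization, and 2 with median centring, trend and robust moderation, probesets above the background or genes above the background only. In 4T1 against 67NR they were 3 with median centring or quantile normalization and 2 with the mean of probesets or trend and robust moderation. In 4T1 against 4T07 the mean of probesets called 1. Over 9 other settings, counting that with array 1 of 168FARN alone, genes called were 1847 to 4494 in 168FARN against 67NR. They were 3287 to 4105 in 4T1 against 67NR and 344 to 535 in 4T1 against 4T07. Without its filter the exon test made 9 calls over the pairs of lines, on 3 member probesets. None of the 3 was among the 2 called with the filter, and with the filter the splicing index made 1 call. Differing dendritic cell markers were 2 among genes above the background only or with trend and robust moderation, which left 1 muscle marker. Eosinophil, basophil and mast cell markers fell to 2 with probesets above the background. The cause was not tested.

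Leaving out 1 array at a time, the largest difference of Csf2 lay between 0.73 and 1.10. Members called were 1 to 3 in 168FARN against 67NR and 1 to 2 in 4T1 against 67NR. Exon-level calls were 1 to 3, dendritic markers 0 to 2, endothelial 3 to 6 and muscle 0 to 9. Genes called between 4T1 and 4T07 were 156 to 531 against 357 with all arrays: 158 without 4T07 array 2, and 156, 233 and 224 without 4T1 arrays 1, 2 and 3. Rises and falls counted in the lists moved by over 1.5 times in 313 of 3528 recounts.

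The replicate numbers share no stated source, and deviations of same-numbered arrays correlated at -0.09 to 0.19, so the numbers were not taken to pair the samples. With a replicate block, 6405 in place of 6312 genes differed among the lines, and 44 in place of 49 member probesets did. The share of all probesets with the block is not given here. By limma the adjusted p of Csf3 was 2.00e-05 with the block, and the number of members called stayed the same in each pair.

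Only 3 arrays per line limit the precision, and for Csf2 and some probesets of Csf3 the signal lay near the background.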
